A study of Caenorhabditis elegans with 4 samples.

Results

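Argonaute proteins are the effectors of small RNA pathways, and 9 of their genes in Caenorhabditis elegans were followed here: alg-1, alg-2, rde-1, ergo-1, prg-1, csr-1, hrde-1, wago-1 and wago-4. The members were all probe sets that the platform's annotation assigns to 1 of these genes alone, which gave 15 of 22548 probe sets and 9 of 17138 genes. Of the 9 genes, 5 are read by 1 probe set and 4 by several. One further probe set, assigned to both wago-4 and C06A1.4, was kept out of the counts. No sequence of a probe or gene is printed, as none was used here.

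An Argonaute binds a short guide RNA and uses it to find matching transcripts, which are then cut, made unstable, silenced at the chromatin or, in some cases, protected. In C. elegans the family has split into branches: ALG proteins carry microRNAs, RDE-1 and ERGO-1 take up primary small interfering RNAs, PRG-1 is the Piwi protein that carries piRNAs, and CSR-1 and the WAGO proteins carry secondary small RNAs made by RNA-dependent RNA polymerases. The Piwi, CSR-1 and WAGO branches work mainly in the germline, where they separate transcripts to be expressed from transcripts to be silenced and carry that memory to progeny.

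RNA was measured in wild-type hermaphrodite young adults, with 1 Affymetrix C. elegans Genome array for each of 4 groups. The 3 exposed groups were held for 24 h at 20 °C, unfed, in a salt solution that held 1 compound each: bisphenol A (BPA), DEHP, which is the diester di(2-ethylhexyl) phthalate, or NP. The control is labelled untreated. NP is not spelled out in the labels and most likely stands for nonylphenol. Each compound was given at 1/100 of its own LC50 (the concentration that kills 50% of the worms), so concentrations were not matched. The labels do not say whether the control worms were fed, kept in the same solution or held for the same 24 h. If these differed, the compound, the lack of food, the solution and the time held cannot be told apart in a change from the control. All groups share the wild-type strain and the culture on Escherichia coli OP50 before exposure. Since each group had 1 array, nothing could be tested against a spread between replicates. Every value below describes these 4 arrays, and their number limits the precision.

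Values are deposited intensities, in arbitrary units, and log2 changes. A change is given relative to the median gene among those detected in that comparison, and a gene counts as detected if the brighter of the 2 arrays reaches the pooled median of the scaled values (129). That median gene lay 0.0099 (BPA), 0.16 (DEHP) and 0.38 (NP) log2 above the control once the arrays had a common median, so a change given as 0 still depends on how the arrays are scaled. A change of at least 2-fold (1 on the log2 scale) is the size that was counted. Intensities of different probe sets cannot be set against each other. Whole worms were used, so fewer cells of a type and less RNA per cell cannot be told apart. All 26 germline marker genes measured, which include gld-1, oma-1, rme-2 and puf-5, were detected in every comparison.

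None of the 9 Argonaute genes differed from the control by 2-fold on any exposed array, taking the brightest probe set of each. The share of all detected genes that did was 2.71% with BPA, 8.54% with DEHP and 10.3% with NP. Beside shares of this size, 0 of 9 is not a result about the Argonautes. Within 0.5 log2 of the median gene lay 8 of 9 Argonautes on each exposed array, beside 84.2% (BPA), 73.4% (DEHP) and 64.7% (NP) of all detected genes. All 9 brightest probe sets were above the detection level on all 4 arrays.

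**Figure D1:**
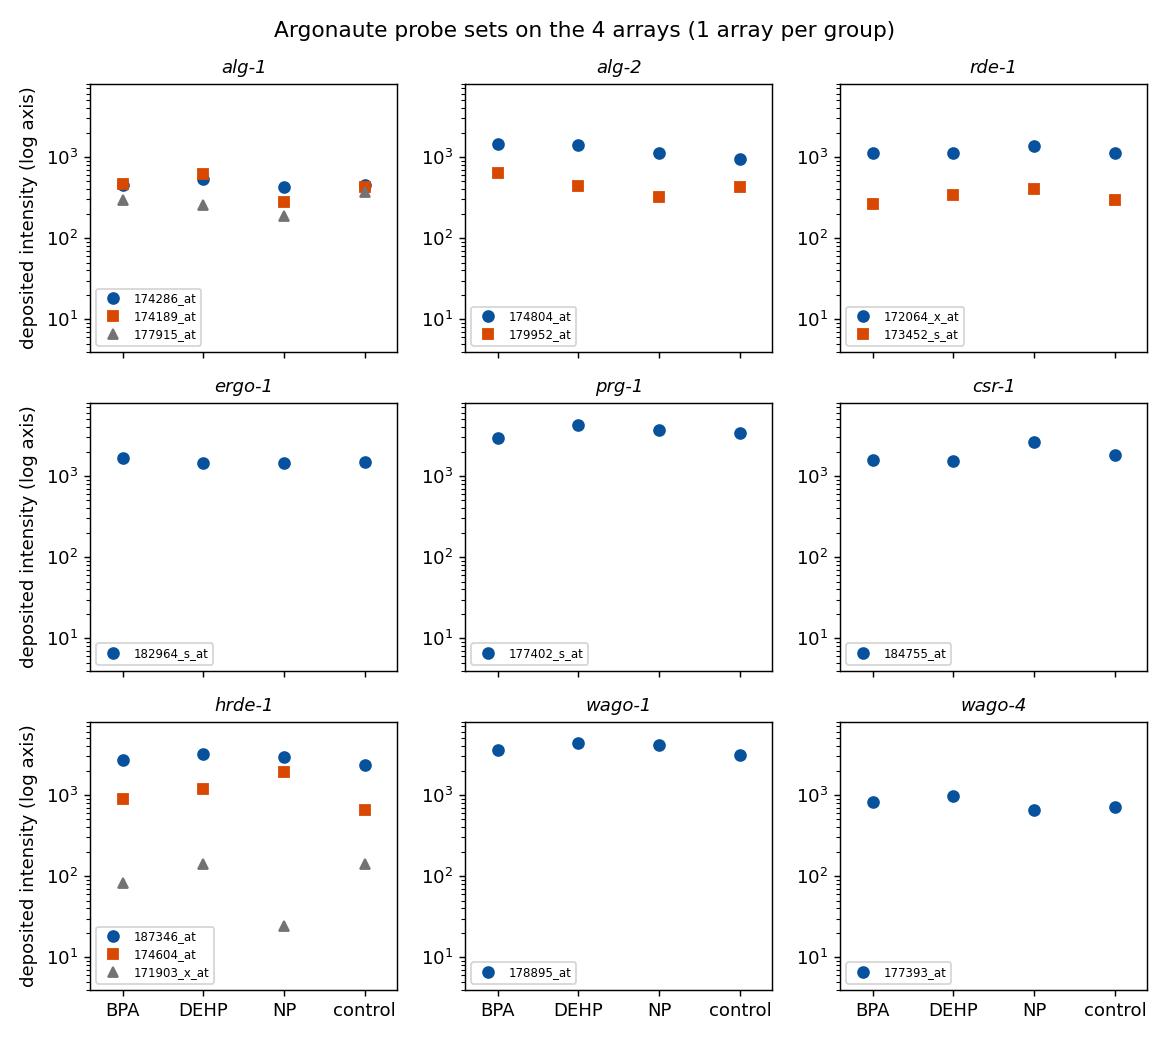
Deposited intensity (log axis) of each of the 15 Argonaute probe sets on the BPA, DEHP, NP and control arrays, 1 panel per gene and 1 symbol per probe set. Each symbol is to be read against its own control value: the second hrde-1 probe set reads 1921 in NP worms against 648 in control worms, and the third, dim one 24.4 against 141.

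The microRNA Argonautes were read by several probe sets each. ALG-1 and ALG-2 are closely related proteins that load microRNAs and silence the targets together with the GW182-like proteins AIN-1 and AIN-2. The brightest alg-2 probe set had an intensity of 1435 in BPA worms, 1391 in DEHP worms and 1119.8 in NP worms, against 955 in control worms. All 3 exposed arrays were thus above the control, with relative log2 changes of 0.59, 0.54 and 0.22. The BPA value of 0.59 was the highest of any Argonaute on that array. Of the 8598 genes detected in all 3 comparisons, 23.9% were above the control on all 3 exposed arrays and 26.1% below. The second alg-2 probe set read 633, 433 and 319.8 on the BPA, DEHP and NP arrays, against 431 on the control array. It gave 0.56 on the BPA array, close to the first, but -0.00069 for DEHP and -0.44 for NP, so the 2 readings of alg-2 had opposite signs for NP. The DEHP value is 0 within the choice of settings, and the mean of both probe sets stood at -0.084 for NP.

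For alg-1 the 3 probe sets also parted. The brightest read 455 in BPA worms, 531 in DEHP worms and 432 in NP worms, against 450.4 in control worms, which gave changes of 0.017, 0.23 and -0.065. The BPA and NP values are near 0 and their sign turned under other settings, with BPA at -0.024 after a correction for gene span (the length of the gene on the genome) and NP at 0.31 when arrays were only set to a common median. The second probe set read 462, 618 and 282 on the BPA, DEHP and NP arrays, against 423 on the control array, with changes of 0.13, 0.54 and -0.59. The third read 293, 255 and 189 on those exposed arrays, against 369 on the control array. It was the only alg-1 probe set below the control on all 3, with changes of -0.33, -0.54 and -0.97. On the NP array each alg-1 probe set thus lay below the control relative to the median gene, by very different amounts, while on the DEHP array they stood on both sides of it.

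The Argonautes of primary small interfering RNAs, read by 3 probe sets in all, had changes between -0.16 and 0.46. RDE-1 binds small RNAs cut by Dicer from double-stranded RNA taken up from outside and is needed for experimental RNA interference in soma and germline. Its brightest probe set, of the _x_ type whose probes can match other transcripts, read 1112 in BPA worms, 1122 in DEHP worms and 1349 in NP worms, against 1112 in control worms. The changes were 0.0025, 0.0051 and 0.27. The BPA and DEHP values are 0 within the choice of settings, which turned their sign (BPA only with a stricter filter on dim genes), and only the NP array stood apart. The second rde-1 probe set, of the likewise shared _s_ type, read 262, 344 and 404 on the BPA, DEHP and NP arrays, against 293 on the control array, with changes of -0.16, 0.22 and 0.46. Both rde-1 readings were highest on the NP array. ERGO-1 acts with endogenous small interfering RNAs in the oocyte-producing germline and the embryo. Its single probe set, also of the _s_ type, read 1664 in BPA worms, 1443 in DEHP worms and 1438 in NP worms, against 1492 in control worms. Its changes of 0.16, -0.055 and -0.057 spanned the narrowest range of any member, 0.22 log2 over the 4 arrays, and the DEHP and NP signs turned to 0.10 and 0.32 without centring on the median gene.

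The Piwi gene prg-1, whose protein scans germline transcripts with piRNAs, read 2914 in BPA worms, 4193 in DEHP worms and 3662 in NP worms, against 3398 in control worms. Its deposited intensity was lowest on the BPA array and highest on the DEHP array. Once the arrays had a common median, the NP value was slightly above the DEHP value, at 4326 against 4242. The changes were -0.22, 0.30 and 0.10, of which the NP value became -0.024 after quantile normalization and -0.056 after loess. Its only probe set is of the _s_ type, so a part of the signal could come from a related transcript such as that of prg-2, the other Piwi gene. The prg-2 probe set, which is not of the shared type, read 1954 in BPA worms, 2282 in DEHP worms and 1596 in NP worms, against 1424 in control worms, with changes of 0.46, 0.67 and 0.16. The 2 Piwi genes thus had opposite signs on the BPA array and the same order of BPA below DEHP.

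The csr-1 transcript had the widest range over the 4 arrays among the brightest probe sets, 0.78 log2. CSR-1 cuts RNA, binds small RNAs against expressed germline genes and is essential for fertility and for chromosome segregation in embryos. Its probe set read 1554 in BPA worms, 1536 in DEHP worms and 2628 in NP worms, against 1825 in control worms. The NP array was the highest and the control the next, with BPA and DEHP together at the bottom. The changes were -0.23, -0.26 and 0.52, and the NP value ranged from 0.35 to 0.90 over the settings tried. Among the 9 genes, 0.52 was the highest change on the NP array and -0.26 the lowest on the DEHP array.

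The 3 WAGO genes act downstream of primary small RNAs. HRDE-1 is nuclear and carries heritable silencing to chromatin in germ cells, WAGO-1 silences genes and transposons in the germ granules, and WAGO-4 is cytoplasmic and is needed for inheritance of RNA interference. The wago-1 probe set read 3546 in BPA worms, 4414 in DEHP worms and 4073 in NP worms, against 3142 in control worms. All 3 exposed arrays were above the control, with changes of 0.18, 0.48 and 0.37. The same held for 23.9% of the genes detected in all 3 comparisons. The wago-4 probe set read 812, 979 and 646 on the BPA, DEHP and NP arrays, against 707 on the control array. It was above the control for BPA (0.20) and DEHP (0.46), while the NP change was -0.13, or 0.25 without centring. The probe set shared by wago-4 and C06A1.4 read 2054 in BPA worms, 2620.4 in DEHP worms and 2194 in NP worms, against 1818 in control worms, with changes of 0.18, 0.52 and 0.27. For NP it stood on the other side of the control from the unshared one.

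On the NP array the detected probe sets of hrde-1 lay farther apart than those of alg-1, alg-2 or rde-1, while on the DEHP array those of alg-1 did, by 1.08 log2. The brightest read 2678 in BPA worms, 3180.4 in DEHP worms and 2925 in NP worms, against 2350.5 in control worms. Its changes were 0.19, 0.43 and 0.31, close to those of wago-1. The second read 887 in BPA worms, 1192 in DEHP worms and 1921 in NP worms, against 648 in control worms. Its changes were 0.45, 0.87 and 1.56, and it was the only detected Argonaute probe set past 2-fold from the control on any array. On the NP array it stood between 1.43 and 1.94 over the settings tried, and for DEHP it reached 1.03 without centring.

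The third hrde-1 probe set, of the _x_ type, was dim. It read 83.4, 141 and 24.4 on the BPA, DEHP and NP arrays, against 141 on the control array, and only the DEHP value reached the detection level after scaling. Its NP value lay just above the floor of 28.3 in scaled units, so its change of -2.53 has no reliable size. With it in the mean of all 3 probe sets, hrde-1 stood at -0.20 for NP, on the other side of the control from the brightest one alone. Of the 14 Argonaute probe sets detected in the NP comparison, 1 was 2-fold from the control, beside 10.9% of all probe sets of a single gene. The numbers were 0 of 14 beside 2.73% for BPA and 0 of 15 beside 7.97% for DEHP.

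**Figure D2:**
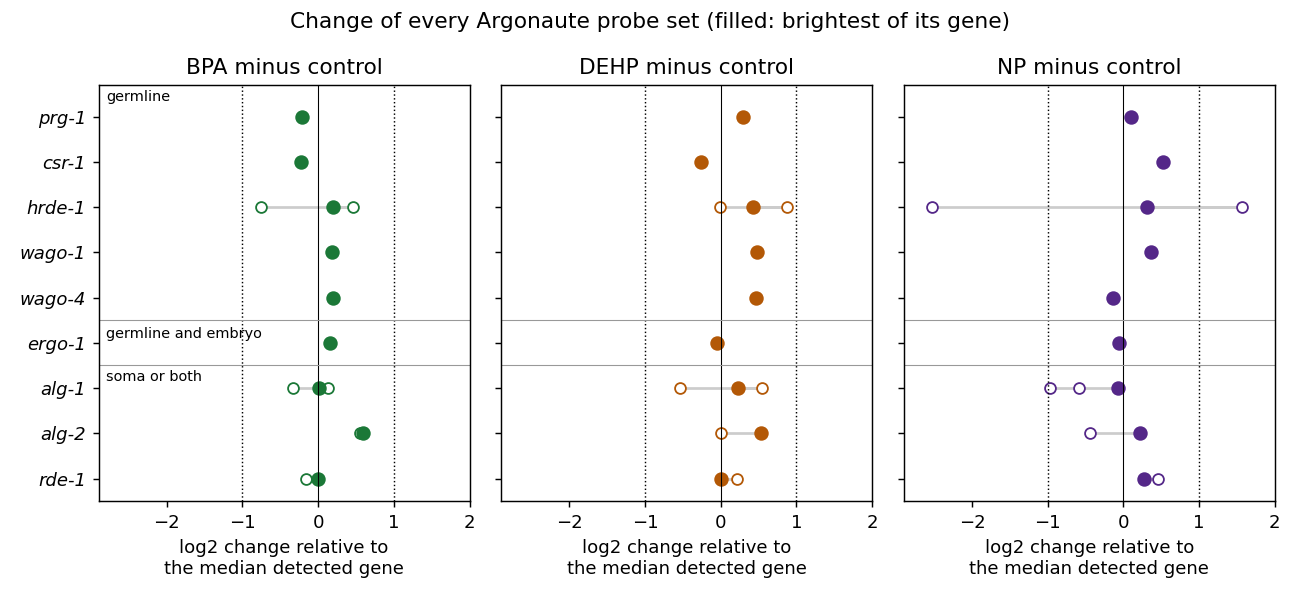
Log2 change relative to the median detected gene for every Argonaute probe set, exposed minus control, in 3 panels, with the brightest probe set of each gene filled, the others open and dotted lines at 2-fold. All filled points lie between -0.26 and 0.59, and the open hrde-1 points on the NP array reach 1.56 and -2.53.

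The gap between the changes of 2 probe sets of 1 gene shows how far readings lay apart on the same arrays, and says nothing of the spread between worm samples. Over the genes with at least 2 detected probe sets, the median gap between the 2 brightest was 0.23 log2 for BPA (n = 2094), 0.23 for DEHP (n = 2104) and 0.37 for NP (n = 2116). For 90% of them the gap was under 0.63, 0.61 and 0.91. Between the 2 brightest hrde-1 probe sets the NP gap was 1.25, larger than in 96.4% of these genes. The corresponding NP gaps were 0.66 for alg-2, 0.52 for alg-1 and 0.18 for rde-1.

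Readings of RNA quality moved on the NP array beside these gaps. The intensity ratio of the 3′ to the 5′ control probe set of actin was 1.22 in BPA worms, 1.37 in DEHP worms and 1.88 in NP worms, against 1.19 in control worms, and that of catalase was 1.44, 1.82 and 3.38, against 1.63. For Gapdh it was 0.83, 0.93 and 1.19, against 0.95. For ubiquitin it was 8.28, 8.01 and 8.98, against 6.66, so all exposed arrays were above the control and the NP array stood little apart. The gly14 pair was too dim to read. On the NP array the longest of 5 equal groups of detected genes by span had a median that differed from that of the shortest by -0.44 log2, against 0.076 for BPA and -0.010 for DEHP. With a lowess correction for span, the 2 brightest hrde-1 probe sets stood at 0.40 and 1.65 for NP and csr-1 at 0.63. The part of RNA quality in the gaps between probe sets was not tested.

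The germline Argonautes prg-1, csr-1, hrde-1, wago-1 and wago-4 had a median change of 0.18 in BPA worms, 0.43 in DEHP worms and 0.31 in NP worms. Those of the soma or of both tissues, alg-1, alg-2 and rde-1, had medians of 0.017, 0.23 and 0.22. By construction 50% of all detected genes lie above the median gene in each comparison. Of the 5 germline Argonautes 3 did so for BPA, 4 for DEHP and 4 for NP, and of the 3 others 3, 3 and 2 did. The 2 groups overlapped on every exposed array. By the brightest probe sets, alg-2 was above each germline gene on the BPA and DEHP arrays and csr-1 below each of the 3 others. On the NP array the 3 others lay inside the germline range of -0.13 to 0.52. For DEHP the place of alg-2 depends on the probe set. Its second one stood at -0.00069 and the mean of both at 0.27, below wago-1 at 0.48. When the probe sets of each gene were averaged, the germline medians became -0.029, 0.44 and 0.13 and the other medians -0.054, 0.12 and -0.084, so the sign on the BPA array and that of the second group on the NP array depend on which probe set is read. The 3 comparisons share 1 control array, and a high or low control value enters all of them alike.

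**Figure D3:**
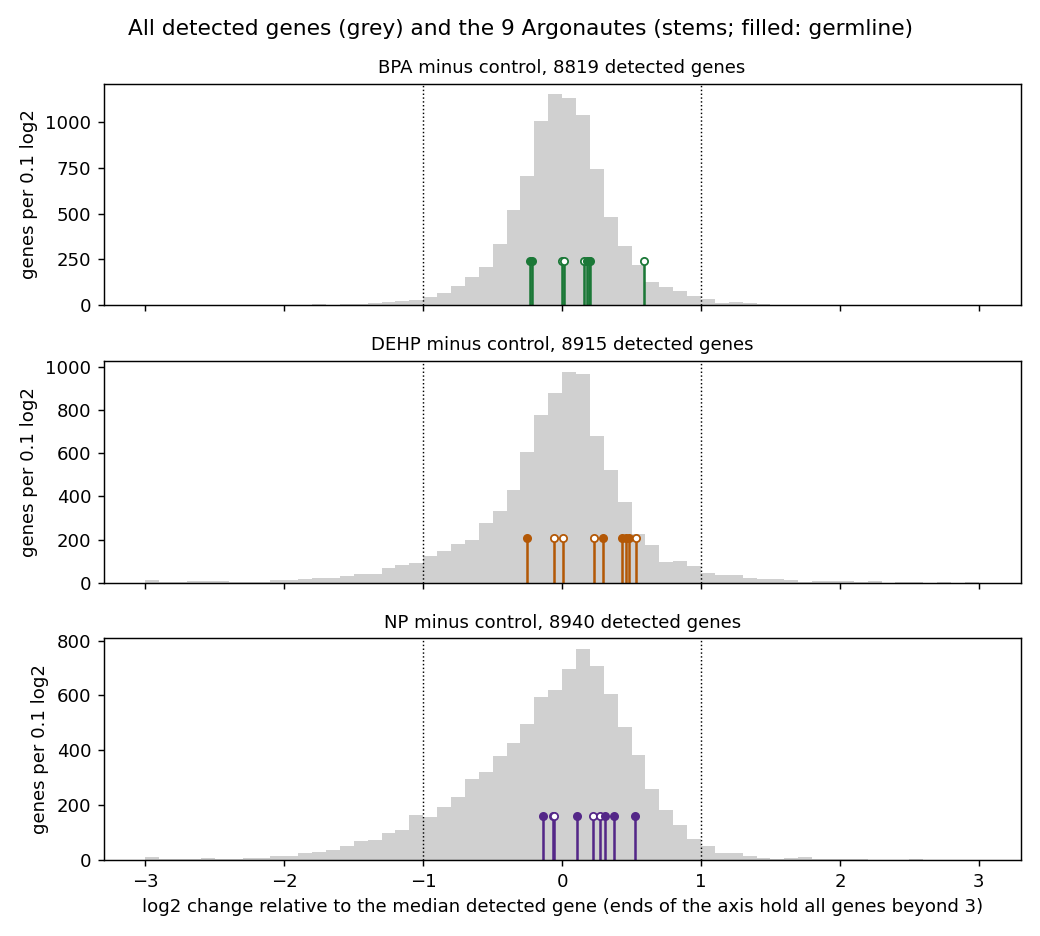
Histograms of the log2 change relative to the median gene for all detected genes (grey), exposed minus control, with 1 stem for the brightest probe set of each Argonaute (filled head for germline genes, open for the others) and dotted lines at 2-fold. All 9 stems stay inside the dotted lines on each array, from -0.23 to 0.59 for BPA, -0.26 to 0.54 for DEHP and -0.13 to 0.52 for NP.

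Markers of tissues shifted on the same arrays. Of all detected genes, 1.41% (BPA), 5.72% (DEHP) and 8.42% (NP) were at least 2-fold lower. At least 2-fold higher were 1.3%, 2.82% and 1.92%. The 26 germline markers had medians of 0.22 (BPA), 0.29 (DEHP) and 0.22 (NP), with 1 of 26 past 2-fold, car-1 on the NP array (1.14 on its brightest probe set, -0.22 and 0.16 on the others). Their summed intensity was 112673 in BPA worms, 118973 in DEHP worms and 116629 in NP worms, against 96242.5 in control worms. The 15 muscle markers had medians of -0.14, -0.42 and -0.67 with 0, 4 and 6 members at least 2-fold lower, and a summed intensity of 64645, 54815 and 45605, against 69985 on the control array. The 12 intestine markers had medians of -0.21, -0.32 and -0.81 with 0, 1 and 3 members at least 2-fold lower, and a summed intensity of 52932, 45702 and 37744 against 56032.5. The 15 detected of 18 neuron markers had medians of -0.20, -0.77 and -1.02 with 0, 3 and 8 at least 2-fold lower, and a sum over all 18 of 16446, 12041 and 11655 against 18539. No germline, muscle or intestine marker was below the floor on any array, and of the neuron markers 1, 2 and 1 were, against 1 on the control array. These sizes moved with the settings: for NP the germline median lay between 0.066 and 0.60 and the muscle median between -0.86 and -0.29. Without centring 3 muscle, 1 intestine and 2 neuron markers were at least 2-fold lower for NP, beside 3.56% of all detected genes. With the correction for gene span 5 muscle, 3 intestine and 4 neuron markers were, and the NP median of the neuron markers was -0.85. For NP car-1 stood at 0.38 over the mean of its probe sets. The part of tissue composition in the Argonaute values was not tested.

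Sperm markers were mostly dim, with 3 of 13 detected for BPA and 4 for DEHP and for NP. Their summed intensity was 1016 in BPA worms, 1776 in DEHP worms and 881 in NP worms, against 1082 in control worms. For DEHP msd-2 (1.86) and msd-4 (1.18), both read by shared probe sets, were past 2-fold higher, beside 2.82% of all detected genes. The other detected ones were ssp-10 (0.43) and spe-15 (-0.60). With a stricter filter on dim genes, at the 75th percentile, neither msd-2 nor msd-4 counted as detected. The Argonautes of spermatogenesis, alg-3 and alg-4, stayed under the detection level on all 4 arrays. The brightest alg-4 probe set read 37.2 in BPA worms, 76.8 in DEHP worms and 34.1 in NP worms, against 46.5 in control worms.

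Of 12 other Argonaute genes on the array, 5 were under the detection level on all 4 arrays: alg-3, alg-4, wago-5, wago-10 and wago-11. None of the 7 detected was 2-fold from the control on any array, beside 2.71% (BPA), 8.54% (DEHP) and 10.3% (NP) of all detected genes. At shares of this size the count is not a result about these 7 genes. Their medians were 0.045 (BPA), 0.17 (DEHP) and -0.035 (NP), the last between -0.17 and 0.34 over the settings tried. Among them the nuclear somatic Argonaute gene nrde-3 read 667, 615 and 482 on the BPA, DEHP and NP arrays, against 568 on the control array, with changes of 0.24, 0.11 and -0.24. The germline gene ppw-2 read 2967, 3255 and 2244, against 2880.5, with changes of 0.045, 0.17 and -0.36. Both had their lowest deposited intensity on the NP array, both are read by shared probe sets, and without centring the NP changes were 0.14 for nrde-3 and 0.015 for ppw-2. The microRNA Argonaute gene alg-5 had changes of -0.10, -0.15 and 0.17 on the brightest of its 3 probe sets, and 0.95 for NP on another.

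Of the wider small RNA machinery, 1 gene passed 2-fold on 1 array. Over the 99 genes of 7 lists (other Argonautes, microRNA processing and silencing, initiation of RNA interference, amplification and mutator genes, piRNA biogenesis, P granules, and nuclear silencing), 91 were detected for BPA, 91 for DEHP and 90 for NP. None was at least 2-fold higher, beside 1.3%, 2.82% and 1.92% of all detected genes. For NP this count rests on centring: without it 4 genes (rde-3, set-32, deps-1 and xrn-2) were past 2-fold higher, beside 8.55% of detected genes. At least 2-fold lower were 0, 0 and 1, beside 1.41%, 5.72% and 8.42%. The median changes over the 7 lists were 0.017, 0.13 and 0.11. Within 0.5 log2 of the median gene lay 89, 83 and 79 of the detected genes, beside 84.2%, 73.4% and 64.7% of all detected genes. The gene past 2-fold was nhl-2, which encodes a TRIM-NHL protein that assists microRNA silencing. It read 466 in BPA worms, 361 in DEHP worms and 155 in NP worms, against 425 in control worms, with an NP change of -1.46 on a single shared probe set.

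By role, the 16 detected genes of microRNA processing and silencing, such as drsh-1, dcr-1 and ain-1, had medians of 0.034 (BPA), 0.17 (DEHP) and -0.047 (NP). The genes that start RNA interference had 0.025 and 0.11 over 18 members for BPA and DEHP, and 0.10 over 17 members for NP. The 14 amplification and mutator genes, which include the RNA-dependent RNA polymerase genes ego-1 and rrf-1, had 0.013, 0.13 and 0.16. The 11 genes of piRNA biogenesis had 0.013, 0.11 and 0.20, the 13 P granule genes -0.032, 0.14 and 0.20, and the 12 nuclear silencing genes 0.022, 0.075 and -0.14. The NP medians of the nuclear silencing and microRNA lists changed sign with the settings, over -0.14 to 0.24 and -0.16 to 0.33.

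Chosen after their values were seen, 3 further genes were the highest of the amplification, nuclear silencing and P granule lists on the NP array. The nucleotidyltransferase gene rde-3, which acts in the mutator complex, read 1503 on the NP array against 830.1 on the control array (0.85). The set-32 gene, for a putative histone methyltransferase of heritable silencing, read 1243 against 774 (0.68). The P granule gene deps-1 read 3178 against 2059 (0.62). All 3 lay below 2-fold relative to the median gene, and without centring they reached 1.23 (rde-3), 1.06 (set-32) and 1.00 (deps-1). The highest of the microRNA list on the NP array, xrn-2, stood at 0.69, and it too passed 2-fold without centring.

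**Figure D4:**
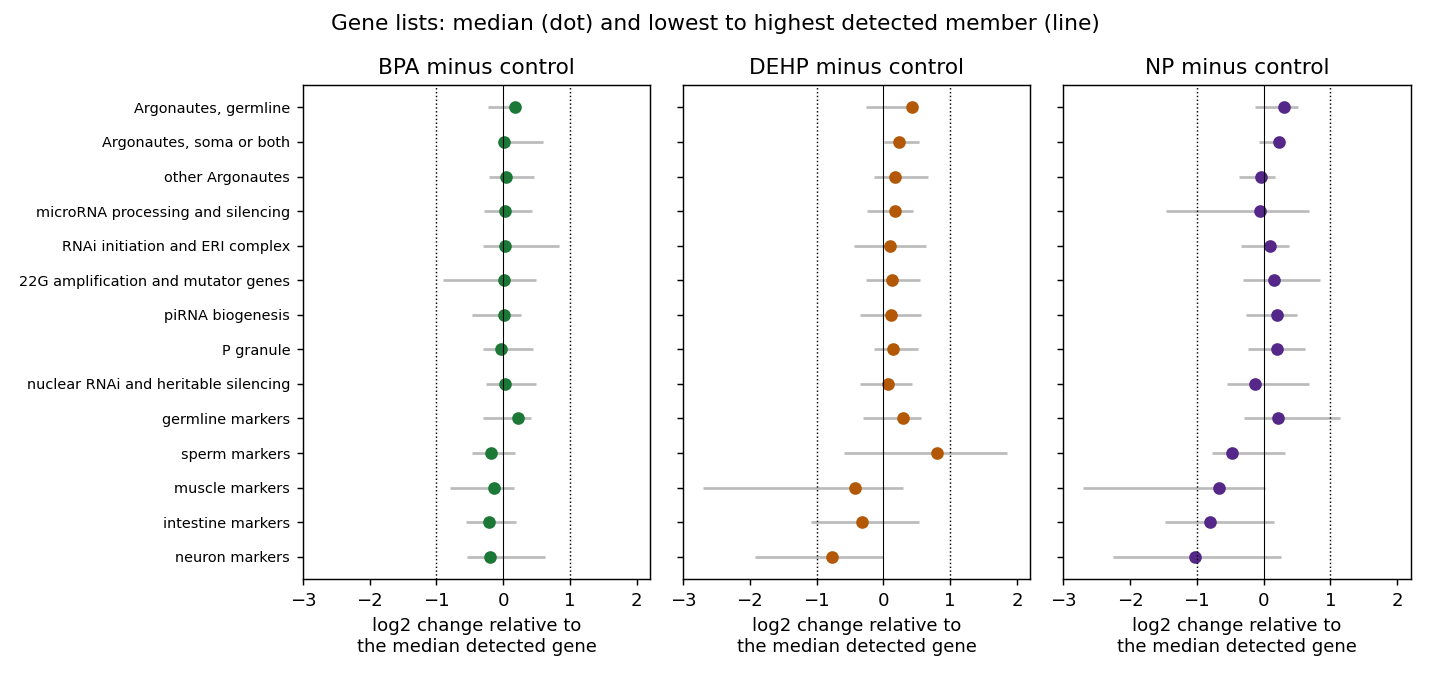
Log2 change relative to the median gene by gene list, exposed minus control, with a dot at the median and a line across the range of its detected members, and dotted lines at 2-fold. The medians of the Argonautes and of the small RNA lists lie between -0.14 and 0.43, while muscle, intestine and neuron markers reach -0.67, -0.81 and -1.02 on the NP array.

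Exposed arrays were also set against each other, at concentrations that were not matched. No brightest Argonaute probe set differed by 2-fold between any 2 of them, beside 4.94% of detected genes for DEHP minus BPA, 8.93% for NP minus BPA and 7.46% for NP minus DEHP. The widest difference was that of csr-1, with 0.78 for NP minus BPA and 0.76 for NP minus DEHP, against -0.0038 for DEHP minus BPA. Without centring csr-1 was past 2-fold for NP minus BPA, at 1.12. For prg-1 the values were 0.54 for DEHP minus BPA, 0.35 for NP minus BPA and -0.20 for NP minus DEHP. For wago-4 the NP minus DEHP difference was -0.61. Among all Argonaute probe sets, the second of hrde-1 was 1.14 higher for NP minus BPA, as 1 of 14 detected past 2-fold beside 10.3% of probe sets. The second of alg-1 (-1.14) and the third, dim one of hrde-1 (-2.54) were lower for NP minus DEHP, as 2 of 15 beside 7.91%, and 0 of 15 were past 2-fold for DEHP minus BPA beside 4.53%.

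The genes most like csr-1, taken because its brightest probe set had the widest range, were har-1, C01G5.5 and snpn-1 among 8597 other detected genes. Their root mean square differences from csr-1 over the 3 changes were 0.023, 0.025 and 0.026 log2. For har-1 the changes were -0.26 (BPA), -0.28 (DEHP) and 0.53 (NP). As many as 43 genes lay within 0.1 of csr-1 on this measure, which rests on 3 values that share 1 control array.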

How the data were processed

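The authors deposited 1 linear intensity value per probe set and array, 22625 per array. No source used here names their software or summary method. The mean without the lowest and highest 2% is about 500 on each array (500.1 in all 4), so the deposited intensities had been scaled to it. The labelling text names fibroblasts as the RNA source, against the other labels, and the arrays were read as worm samples. Groups were taken from the sample titles.

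The 77 control probe sets were set aside. Intensities were put on the log2 scale, shifted to a common median, and raised to a floor at the pooled 25th percentile (28.3). A gene is represented by the probe set with the highest mean, its symbol updated through the RefSeq WBcel235 gene table. Changes are log2 differences minus the median over detected genes. There are no detection calls, so the level of 129 is a pooled median and not a test. No depth or replicate error can be given.

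Every member probe set was named. From each other list up to 4 detected genes past 2-fold were allowed, and the genes most like the member of widest range were taken by root mean square difference. For tissue markers of muscle, intestine and neurons the counts past 2-fold are given without names. Other small RNA genes named beside the members, prg-2 and nrde-3 among them, were picked after their values were seen. The members, gene lists and settings were chosen with earlier results of these data known. The 9 alternatives were the deposited values unscaled, quantile normalization, loess with a span of 0.3, no centring, no floor, no filter, a filter at the 75th percentile, the mean over probe sets, and a lowess correction for gene span. Python 3.11.15 was used with pandas 2.3.3, scipy 1.17.1 and statsmodels 0.14.6. The functions were tested on simulated data. The annotation is of another date than the array, and no coordinates are given since the authors' build is not stated.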

Additional observations from a re-analysis of the deposited data

How the results depend on the processing

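No paired analysis was possible because each group has 1 array, and for the same reason no array could be left out. The count of Argonaute genes past 2-fold from the control was 0 in each direction and comparison under all 9 alternatives. Between exposed arrays it became 1, csr-1 higher for NP minus BPA, without centring and without the filter on dim genes (alternatives added after the data were seen). Of 360 changes of single Argonaute probe sets recomputed, 357 kept their side of 2-fold and none past 2-fold turned sign. The other 3 were the second hrde-1 probe set for DEHP without centring and without the filter on dim genes (1.03 each) and the third alg-1 probe set for NP with the filter at the 75th percentile (-1.11). Only 1 probe set was past 2-fold higher than the control as reported and 1 lower, both of hrde-1 for NP. Below 2-fold signs did turn: the brightest alg-1 probe set did so for NP in 4 of 8 settings. The deposited values and the setting without a floor could hardly move these changes. Centring removes the scaling of an array, and no Argonaute probe set lay below the floor. The shares of all detected genes past 2-fold moved more. Without the filter on dim genes 2.29% were higher for BPA, and 5.51% higher and 3.59% lower for NP. With the filter at the 75th percentile 0.699% were lower for BPA, 3.26% lower for DEHP and 0.848% higher for NP. Without centring 4.39% were higher for DEHP, and 8.55% higher and 3.56% lower for NP. Both settings, no filter and no centring, turn the NP split from mostly lower to mostly higher. They are nearly the same change, since without the filter the centre is taken over all genes, dim ones included. For NP rde-3 stood at 1.22 without the filter and 1.23 without centring. Of the small RNA genes beside the Argonautes, 4 were at least 2-fold higher for NP without centring and 3 without the filter, against 0 as reported. None was lower for NP with the filter at the 75th percentile, which nhl-2 does not pass. Without the filter 1 was higher and 1 lower for BPA. List medians moved most for NP: over all settings the germline Argonautes ranged from 0.12 to 0.69, the other 3 from -0.084 to 0.60, P granule genes from 0.045 to 0.58, piRNA genes from 0.077 to 0.57, amplification genes from 0.050 to 0.54, genes that start RNA interference from 0.062 to 0.48, intestine markers from -1.01 to -0.43 and neuron markers from -1.16 to -0.44. The NP signal of the third hrde-1 probe set is too close to the floor to size.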
